A study of Arabidopsis thaliana with 6 samples.

Results

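The SMALL AUXIN UP RNA (SAUR) genes described here are 50 Arabidopsis thaliana loci out of the 38064 genes in the count table. They were picked by locus identifier and not by a rule on their levels, though earlier results of these data were known. They include the tandem arrays of SAUR19 to SAUR24 on chromosome 5 and SAUR61 to SAUR68 on chromosome 1. Of the 50, 44 had enough counts to be tested, among 20791 genes. The other 6 (SAUR2, SAUR13, SAUR31, SAUR37, SAUR61 and SAUR69) had between 0 and 20 counts in every library and were not tested.

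SAUR genes encode small proteins, most from genes without introns, and many are transcribed within minutes of auxin treatment. Members of the SAUR19 subfamily bind PP2C.D protein phosphatases and inhibit them, which keeps plasma membrane proton pumps phosphorylated and active, acidifies the wall and lets cells expand. In seedlings kept in darkness the hypocotyl elongates, the apical hook stays closed and the cotyledons stay folded, and different SAUR genes are known to act in each of these organs. Phytochrome-interacting factors (PIFs), the auxin response factors and the brassinosteroid factor BZR1 are known to bind SAUR promoters.

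The design text of the series asks what lies behind the mutant's phenotype in darkness. There were 3 libraries of wild-type (Col-0) seedlings and 3 of the bdh1-1 bdh2-1 double mutant, which carries alleles of both BCL-DOMAIN HOMOLOG genes that the labels do not describe further; the series title links their proteins to SWI/SNF chromatin remodelling complexes. All seedlings were 5 days old, dark-grown at 22 °C on half-strength medium and untreated, and polyadenylated RNA was sequenced with strand retained. The labels name whole etiolated seedlings and the design text names hypocotyls, and neither says whether a library is a separate plate or a pool, so p-values measure only the spread between libraries. The mutant is 1 allele combination, and in bulk RNA fewer cells of a type and less RNA per cell cannot be told apart.

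Library totals ran from 40876788 to 44982000 counts, and the members took 0.0511% to 0.0691% of each. AT4G22320 and AT5G55210, taken here as the loci of BDH1 and BDH2, which the labels do not give, lay at 143 to 755 counts in the wild-type libraries and 7 to 22 in the mutant ones. The etiolation markers PORA, HLS1 and PIF3 were abundant in all libraries (summed level 590 to 694 CPM, or counts scaled to library size, in the wild type and 825 to 1357 in the mutant), and all 3 rose in the mutant. Root hair markers (EXPA7, EXPA18, SHV2, RHD6, PRP3) summed to between 1.24 and 6.67 CPM in the wild type and between 2.62 and 3.54 CPM in the mutant, 0 of 4 tested changed, and EXPA7 was at 0 in 1 and EXPA18 in 2 wild-type libraries. Shoot epidermis markers summed to 1031 to 1269 CPM against 833 to 1050 CPM, and 2 of 3 (ATML1 and PDF1) fell in the mutant, though ATML1 went from -0.32 to -0.05 (log2 fold change, adjusted p 0.745) with offsets for transcript length. Seed storage transcripts (CRA1, CRU3, PAP85) stood at 38.7 and 89.2 CPM in wild-type replicates 2 and 3 and at 0.442 to 1.71 CPM in the other 4 libraries. All 3 were called lower in the mutant, though the groups overlapped, and each lost this call without mutant replicate 1. CRA1 and PAP85 also lost it without wild-type replicate 3, and CRU3 without wild-type replicate 2 or mutant replicate 3. The part of these cell type and storage differences in the SAUR values was not tested.

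The SAUR19 to SAUR24 copies are shown because their similarity may limit how far the counts can separate them. The lines below hold the first 60 coding bases of each, 5′ to 3′, from the RefSeq TAIR10.1 genome, and capitals mark the positions at which the 6 copies are not all the same. They lie at chr5:5963246-5963305 (SAUR19, minus), chr5:5966521-5966580 (SAUR20, minus), chr5:5968527-5968586 (SAUR21, plus), chr5:5974904-5974963 (SAUR22, minus), chr5:5976030-5976089 (SAUR23, plus) and chr5:5983840-5983899 (SAUR24, plus), with the strand given after each name. Pairs of the 6 were 87.7% to 95.2% identical over the whole coding sequence, with a median of 91.2%.
SAUR19: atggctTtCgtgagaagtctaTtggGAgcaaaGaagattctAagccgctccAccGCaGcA
SAUR20: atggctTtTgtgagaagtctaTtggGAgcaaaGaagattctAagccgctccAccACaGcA
SAUR21: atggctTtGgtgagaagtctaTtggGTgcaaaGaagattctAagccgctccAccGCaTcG
SAUR22: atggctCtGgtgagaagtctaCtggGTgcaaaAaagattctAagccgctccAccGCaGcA
SAUR23: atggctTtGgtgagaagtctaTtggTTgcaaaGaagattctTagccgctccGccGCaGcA
SAUR24: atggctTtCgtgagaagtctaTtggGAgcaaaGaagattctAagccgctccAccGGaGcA

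In this stretch 12 of the 60 positions vary among the 6 copies. The SAUR61 to SAUR68 coding sequences were 45.6% to 89.4% identical to each other, and those of SAUR26 to SAUR29, another array, 77.7% to 86.3%. SAUR62 shares 655 bases at 95.3% identity with AT5G27780, a SAUR outside the 50, and SAUR63 shares 490 bases at 95.3% with AT1G29510. The search for copies (at least 100 bases at 95% identity) found one for 4 members, none of them in SAUR19 to SAUR24 or SAUR26 to SAUR29. How reads were assigned between similar loci was not examined, so single values inside these arrays may be uncertain. AT1G29490 and AT1G29510 are given by locus, since the annotation gives both the name SAUR68.

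Upstream sequence is shown for the pair of members that fell and the pair that rose with the largest size of log2 fold change, SAUR11, SAUR12, SAUR9 and SAUR51. Each line is the 250 bases before the annotated gene start on the plus strand, 5′ to 3′ (RefSeq TAIR10.1), and capitals mark CACATG or its reverse complement CATGTG, the PBE box that PIFs are known to bind. The windows lie at chr5:26470974-26471223 (SAUR11), chr4:17089684-17089933 (SAUR9), chr1:28377127-28377376 (SAUR51) and chr2:9088976-9089225 (SAUR12), and none of the 4 overlaps another annotated gene.
SAUR11: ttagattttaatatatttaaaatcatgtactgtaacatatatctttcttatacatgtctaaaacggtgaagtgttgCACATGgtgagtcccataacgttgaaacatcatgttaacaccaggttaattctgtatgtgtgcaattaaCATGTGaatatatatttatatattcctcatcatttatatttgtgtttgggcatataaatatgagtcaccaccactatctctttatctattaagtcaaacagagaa
SAUR9: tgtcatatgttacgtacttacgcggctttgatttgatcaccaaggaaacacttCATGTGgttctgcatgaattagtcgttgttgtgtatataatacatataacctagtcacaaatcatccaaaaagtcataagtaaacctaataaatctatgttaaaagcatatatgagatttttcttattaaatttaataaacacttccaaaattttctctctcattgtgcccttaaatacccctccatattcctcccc
SAUR51: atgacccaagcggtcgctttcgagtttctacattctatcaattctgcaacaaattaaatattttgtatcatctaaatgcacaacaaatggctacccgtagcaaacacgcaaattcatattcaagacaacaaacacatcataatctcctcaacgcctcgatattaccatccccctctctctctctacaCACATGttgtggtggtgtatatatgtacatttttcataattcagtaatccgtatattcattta
SAUR12: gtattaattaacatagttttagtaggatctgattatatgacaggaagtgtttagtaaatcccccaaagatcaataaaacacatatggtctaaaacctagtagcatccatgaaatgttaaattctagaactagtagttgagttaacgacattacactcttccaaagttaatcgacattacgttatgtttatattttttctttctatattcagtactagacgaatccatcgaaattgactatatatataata

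SAUR11 holds 2 such boxes, SAUR9 and SAUR51 hold 1 each, and SAUR12 holds none. Across the 50 windows, searched on both strands, 28 (56.0%) held CACATG, against 11.1% of 27443 promoters of the same length; 10 held more than 1. The auxin response element TGTCTC was in 7 (14.0%, against 10.9% of promoters) and its variant TGTCGG in 2 (4.0%, against 4.2%). The G-box CACGTG (6.5% of promoters) and the BZR1 elements CGTGTG (5.4%) and CGTGCG (1.6%) were in none of the 50 windows. None of the 6 motifs contains another, and 3 of the 50 windows overlap a neighbouring gene. Of the 28 members with CACATG, 23 lie in tandem arrays, whose members share sequence. Of 26 tested members with the box 2 fell and 2 rose, 18 had a log2 fold change below 0 and the median was -0.18. Of 18 without it 3 fell and 2 rose, 9 were below 0 and the median was 0.06. Over all tested genes 11.3% fell and 12.1% rose. With length offsets 12 of the 26 and 7 of the 18 were lower, against 9.87% of all genes, with medians of -0.39 and -0.10. The difference between these sets was not tested. All 7 members with TGTCTC lie in arrays, and all 7 had a log2 fold change below 0 (median -0.31) with 0 past the threshold.

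The summed level of the SAUR set overlapped between the genotypes, while 9 single genes changed, in both directions. Summed over the 50, the level was 543, 699 and 554 CPM in wild-type replicates 1, 2 and 3 and 562, 497 and 686 CPM in mutant replicates 1, 2 and 3. The means were 599 ± 86.9 and 582 ± 96.3 CPM (SD, n = 3 each), and the groups overlapped. In the quasi-likelihood test of edgeR, adjusted over all genes at 0.05 (Benjamini-Hochberg), 5 of 44 tested members fell in the mutant (11.4%, against 11.3% of all tested genes) and 4 rose (9.09%, against 12.1%). These shares lie near or under the background. The median log2 fold change (mutant over wild type) of the tested members was -0.17, with 27 below 0 and 17 above, against 0.0 for all genes. All 3 wild-type libraries lay above all 3 mutant ones for 7 of 44 members (15.9%, against 20.5% of all genes), and the reverse held for 6 (13.6%, against 20.8%). In the authors' deposited table, which lists 47 of the members, 5 were lower (12.1% of its genes were) and 6 were higher (11.9% were); 9 of these 11 are the same genes as here, and SAUR53 and SAUR78 were called only there.

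**Figure D1:**
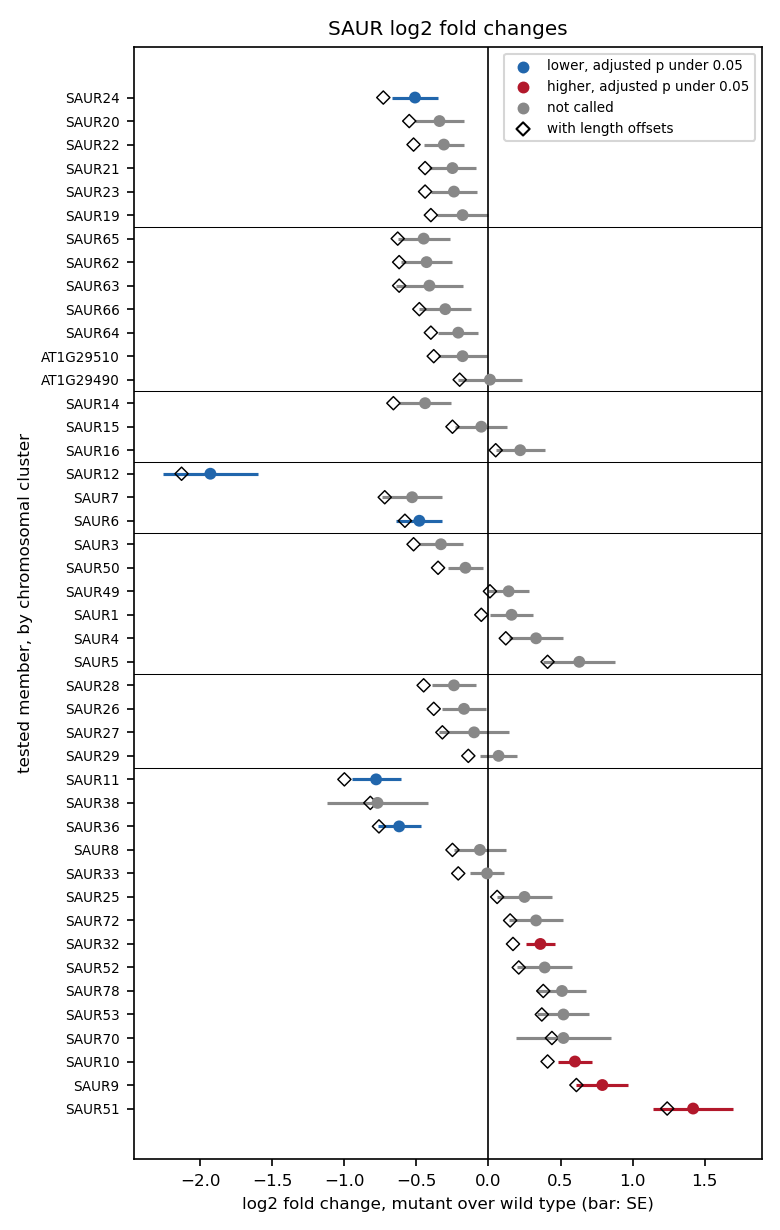
Log2 fold change (mutant over wild type, horizontal axis) of the 44 tested members, 1 row each, grouped by tandem array with the singly placed genes at the bottom; filled points with bars give the estimate ± SE and open diamonds the estimate with length offsets. SAUR12 at -1.93 and SAUR51 at 1.42 stand furthest from 0, and most diamonds lie left of their points.

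Among the members that fell, SAUR12 (AT2G21220, on chromosome 2 beside SAUR6 and SAUR7) showed the largest change. It had 82, 100 and 50 counts in the wild type and 20, 16 and 22 in the mutant, or 1.72 ± 0.593 and 0.448 ± 0.0645 CPM (SD, n = 3 each). All 3 mutant libraries lay below the lowest wild-type library. The fitted level was 3.81-fold lower in the mutant (log2 fold change -1.93, SE 0.33, edgeR adjusted p 0.00424), and the call held under all 17 alternatives.

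SAUR11 (AT5G66260) stood at 7.45, 8.74 and 7.78 CPM in the wild type and 3.94, 4.07 and 5.92 CPM in the mutant. The groups did not overlap, and mutant replicate 3 was the nearest to the wild type. The level fell 1.72-fold (log2 fold change -0.78, SE 0.17, edgeR adjusted p 0.012). Without mutant replicate 1 the adjusted p was 0.0633.

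SAUR36 (AT2G45210), also known as SAG201 and reported to promote leaf senescence, was among the more abundant members, at 36.9, 47.9 and 38.8 CPM in the wild type and 26.7, 21.8 and 31.9 CPM in the mutant. It fell 1.54-fold with no overlap (log2 fold change -0.62, SE 0.15, edgeR adjusted p 0.0165). Without mutant replicate 1 the adjusted p was 0.0725, and the call was also lost with the replicate number as a block.

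SAUR24 (AT5G18080) and SAUR6 (AT2G21210) passed the threshold narrowly. SAUR24 stood at 13.6, 18.1 and 14.7 CPM in the wild type and 10.1, 8.99 and 13.4 CPM in the mutant (log2 fold change -0.51, SE 0.16, edgeR adjusted p 0.0476). SAUR6 had 811, 973 and 644 counts against 572, 498 and 594 (-0.48, SE 0.16, edgeR adjusted p 0.0499). In both genes the groups did not overlap, but the lowest wild-type and highest mutant library lay close together. SAUR6 overlaps SAUR7 on the same strand, so reads there cannot be assigned to 1 of them. SAUR24 kept its call in 9 of the 16 alternatives in which it was tested alone and SAUR6 in 9 of 17; the call was lost without any 1 of 5 of the 6 libraries for each, at adjusted p up to 0.166 for SAUR24 and 0.145 for SAUR6.

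Of the members that rose, SAUR51 (AT1G75580) changed most. It had 30, 46 and 72 counts in the wild type and 126, 130 and 120 in the mutant, or 1.09 ± 0.451 and 2.91 ± 0.162 CPM (SD, n = 3 each). All mutant libraries lay above all wild-type ones. The level was 2.67-fold higher (log2 fold change 1.42, SE 0.28, edgeR adjusted p 0.00765), and the call held under all 17 alternatives.

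SAUR10 (AT2G18010), whose overexpression is known to increase organ growth, had little spread. It stood at 6.02, 5.97 and 5.77 CPM in the wild type and 8.34, 8.92 and 9.72 CPM in the mutant, without overlap, and rose 1.52-fold (log2 fold change 0.60, SE 0.12, edgeR adjusted p 0.00727). With length offsets its change was 0.41 (edgeR adjusted p 0.0338), and with the replicate number added as a block it was 0.60 (edgeR adjusted p 0.0419). The call was lost only with length offsets and the block together (edgeR adjusted p 0.108). SAUR9 (AT4G36110), a SAUR that inhibits PP2C.D phosphatases in biochemical assays, stood at 9.02, 12.8 and 9.37 CPM against 17.9, 14.5 and 21.7 CPM. It rose 1.73-fold (0.79, SE 0.18, edgeR adjusted p 0.0119). This call was lost without wild-type replicate 1 or mutant replicate 1, where the adjusted p reached 0.0513. It was also lost with length offsets and the block (edgeR adjusted p 0.0543).

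SAUR32 (AT2G46690), known to open the apical hook when overexpressed, stood at 32.3, 31.6 and 31.6 CPM in the wild type and 40, 36.8 and 45.7 CPM in the mutant. It rose 1.28-fold with no overlap (log2 fold change 0.36, SE 0.10, edgeR adjusted p 0.0283). The call was lost without any 1 of 4 libraries (wild-type replicates 1 and 3, mutant replicates 1 and 3), at adjusted p up to 0.0922, and with offsets that remove the trend of counts with transcript length, at 0.17 and adjusted p 0.217. Just outside the threshold were SAUR78 (AT1G72430), reported to interact with ethylene receptors, at 0.51 and adjusted p 0.0503, and SAUR53 (AT1G19840) at 0.52 and 0.0589. SAUR38 (AT2G24400), a low-level gene, had a log2 fold change of -0.77 with adjusted p 0.13; its values were 1.02, 0.497 and 0.911 CPM against 0.501, 0.428 and 0.486 CPM, and the groups overlapped.

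**Figure D2:**
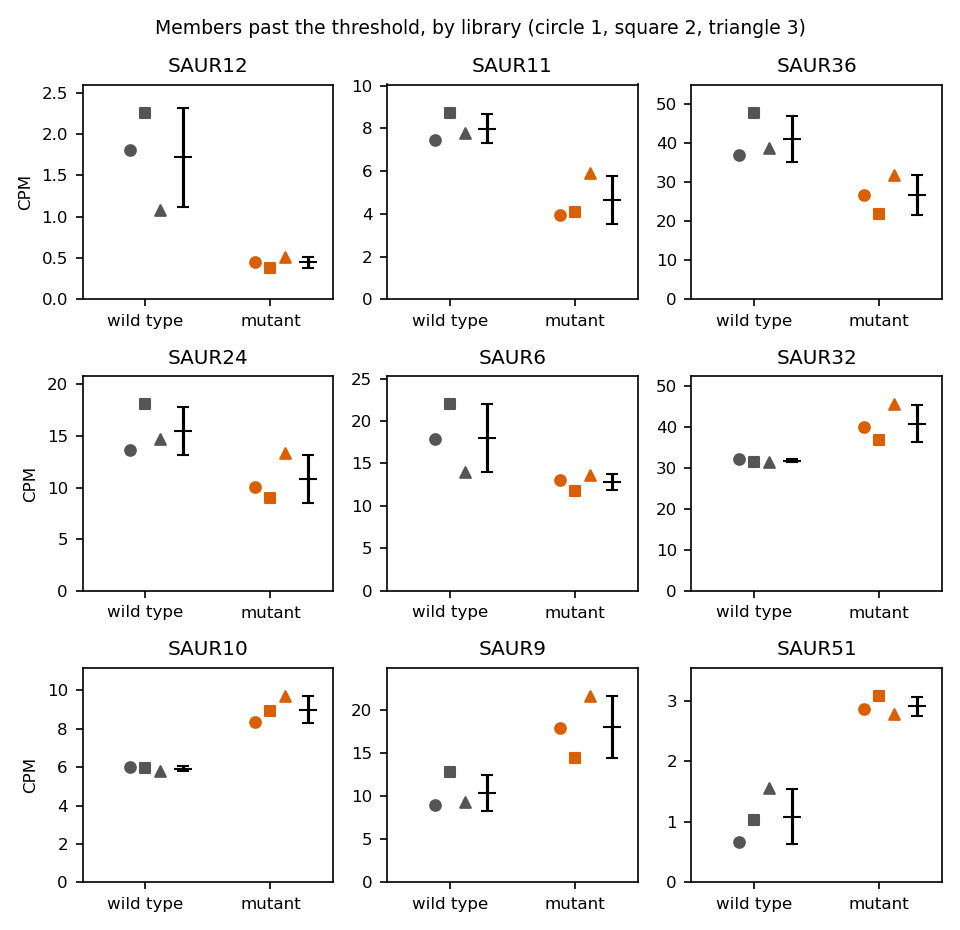
Level in CPM (vertical axes, from 0) of the 9 members past the threshold, 1 panel each, in every wild-type and mutant library, with the mean and SD of each group (n = 3) beside the points. In all 9 panels the groups do not overlap, narrowly so for SAUR24 and SAUR6.

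Of these 9 genes, 5 belong to 1 sequence group, found after their values were seen. SAUR8, SAUR9, SAUR10, SAUR11, SAUR12, SAUR16, SAUR50 and SAUR51 each have their 3 nearest coding sequences among these 8, at 63.6% to 85.5% identity to the nearest. Within the 8, SAUR11 and SAUR12 fell, SAUR9, SAUR10 and SAUR51 rose, and SAUR8, SAUR16 and SAUR50 were not past the threshold. The group was picked with these calls in view, so the counts are a description; over all tested genes 11.3% fell and 12.1% rose. As a description of how members of the group moved against each other, the log2 ratio of SAUR12 to SAUR16, 85.5% identical in coding sequence, was -4.01, -4.10 and -4.78 in the wild type and -6.22, -6.37 and -6.55 in the mutant. The ratio of SAUR51 to SAUR16 went the other way, from -5.46, -5.22 and -4.25 to -3.56, -3.35 and -4.11, with 1 mutant library close to the nearest wild-type one. The log2 ratio of SAUR9 to SAUR10, which both rose, overlapped between the genotypes, at a mean of 0.79 ± 0.27 and 0.99 ± 0.25 (SD, n = 3 each).

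The SAUR19 to SAUR24 array, the one tied most directly to proton pump activation and hypocotyl growth, was lower in the mutant on average but within the spread of the libraries. Log2 fold changes of SAUR19, SAUR20, SAUR21, SAUR22, SAUR23 and SAUR24 were -0.18, -0.34, -0.25, -0.31, -0.24 and -0.51. Only SAUR24 passed the threshold (1 of 6, while 11.3% of all tested genes fell). The edgeR adjusted p of the other 5 lay between 0.128 and 0.483. Summed over the array the level was 120, 161 and 121 CPM in the wild type and 105, 92.8 and 132 CPM in the mutant. Mutant replicate 3 lay above wild-type replicates 1 and 3. With the 6 loci counted as 1 feature, which does not depend on how reads were split between copies, the log2 fold change was -0.29 (SE 0.15, edgeR adjusted p 0.194).

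In the SAUR61 to SAUR68 array, whose SAUR63 subfamily is known to promote hypocotyl and stamen filament elongation, 6 of 7 tested loci were below 0. Over all tested genes 11.3% fell and 12.1% rose, while 0 of these 7 passed the threshold. Their log2 fold changes ran from -0.45 (SAUR65, adjusted p 0.0978) and -0.43 (SAUR62, 0.103) through -0.41 (SAUR63, 0.216), -0.30 (SAUR66, 0.254), -0.21 (SAUR64, 0.301) and -0.18 (AT1G29510, 0.456) to 0.01 (AT1G29490, 0.988). SAUR61 was nearly silent, with 14, 7 and 6 counts in the wild type and 5, 1 and 2 in the mutant. The summed level was 69.3, 93.3 and 65.6 CPM against 56.7, 53.5 and 75.6 CPM, and as 1 feature the array gave -0.30 (SE 0.16, edgeR adjusted p 0.207). SAUR63, SAUR64 and SAUR61 overlap a locus on the opposite strand.

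The smaller arrays differed among themselves. All 3 loci of the SAUR6, SAUR7 and SAUR12 array were below 0, with 2 past the threshold and a median of -0.53. SAUR26 to SAUR29, known for growth at warm temperature, had a median of -0.14 and none past the threshold. In the array of SAUR49, SAUR50 and SAUR1 to SAUR5, 4 of 6 tested loci were above 0, the median was 0.15 and none passed. SAUR14, SAUR15 and SAUR16 had a median of -0.05 and none passed; SAUR15 (AT4G38850, SAUR-AC1), the classical auxin-induced member of the family, stood at 5.57, 7.73 and 6.03 CPM against 6.15, 5.14 and 7.40 CPM (-0.05, SE 0.18, edgeR adjusted p 0.866). Of the 18 singly placed members 15 were tested, and 10 of these were above 0, with a median of 0.36. Among the 15, 4 rose and 2 fell, while over all tested genes 12.1% rose and 11.3% fell. With length offsets 3 were higher and 2 lower (10.2% and 9.87% of all genes), and the median was 0.17. The summed level of the 18 was 168, 216 and 186 CPM in the wild type and 220, 190 and 256 CPM in the mutant, and the groups overlapped.

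**Figure D3:**
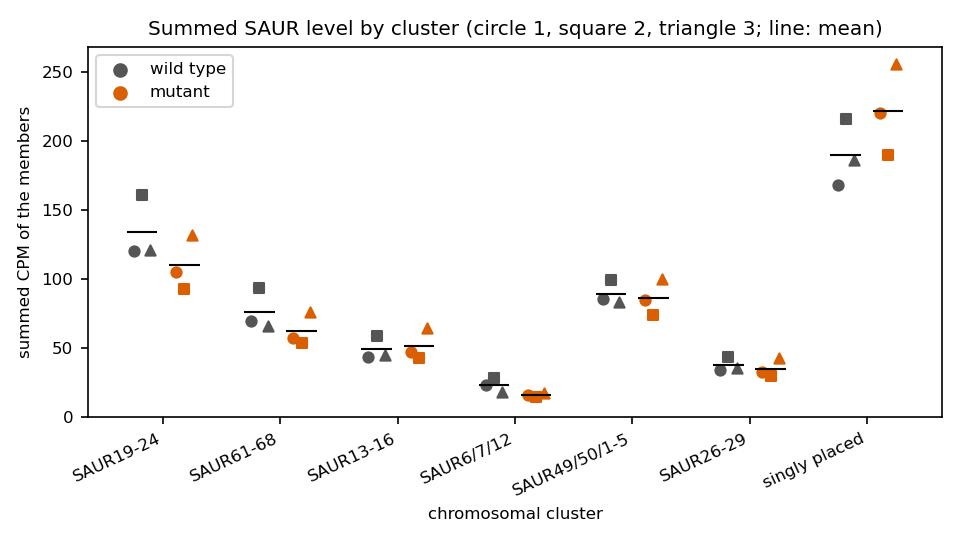
Summed CPM of the members (vertical axis, from 0) in each tandem array and among the singly placed genes, 1 point per library, with a line at each group's mean. Wild-type replicate 2 and mutant replicate 3 are the highest of their group in all 7 sets, and the groups overlap in 6 of them.

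Per kilobase of exon, the most abundant members over all libraries were SAUR50, SAUR78, SAUR32, SAUR22 and SAUR16. SAUR50 (AT4G34760), which is known to act in cotyledon opening, stood at 66.1 ± 6.09 CPM per kilobase in the wild type and 59.1 ± 8.99 in the mutant (SD, n = 3 each), and its log2 fold change was -0.16 (SE 0.12, edgeR adjusted p 0.356). SAUR78 stood at 40.7 ± 8.92 and 58.1 ± 9.84, SAUR32 at 35.5 ± 0.46 and 45.6 ± 5.02, and SAUR22 at 37.3 ± 3.55 and 30.0 ± 5.8 CPM per kilobase. SAUR16, which acts with SAUR50 in the cotyledons, stood at 31.0 ± 5.05 and 36.0 ± 8.4 CPM per kilobase (0.22, SE 0.17, edgeR adjusted p 0.369). The median over the 44 tested members was 12.3 CPM per kilobase (range 0.379 to 62.6, both groups together), against 7.48 for all tested genes. The members with the largest changes were low on this scale: SAUR12 stood at 2.08 ± 0.717 and 0.542 ± 0.078 CPM per kilobase, and SAUR51 at 1.16 ± 0.483 and 3.12 ± 0.173.

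Most members moved together between libraries of the same genotype. Wild-type replicate 2 was the highest of its group for 35 of 44 tested members, with a median deviation from the group mean of 0.23 on the log2 scale. Mutant replicate 3 was the highest of its group for 38 of 44 (0.25) and mutant replicate 2 the lowest for 32 (-0.22). For all tested genes the median deviation of every library lay within 0.01 of 0. In SAUR19 to SAUR24, wild-type replicate 2 and mutant replicate 3 were each the highest for 6 of 6, and mutant replicate 2 the lowest for 6 of 6. These swings within a genotype are of the size of the difference between the genotypes in that array. The shoot epidermis marker sum was highest in wild-type replicate 2 (1269 CPM) and mutant replicate 3 (1050 CPM) of their groups. It was lowest in wild-type replicate 3 (1031 CPM) and mutant replicate 2 (833 CPM). Of its 3 markers, ATML1 ran otherwise, highest in wild-type replicate 1 (107 CPM) and mutant replicate 2 (85.0 CPM). The root hair marker sum, at a far lower level, was also highest in wild-type replicate 2 and mutant replicate 3, at 6.67 and 3.54 CPM. In wild-type replicate 2 PRP3 made up 3.25 CPM of it, and among the mutant libraries RHD6 was lowest in replicate 3 (1.02 CPM). The etiolation marker sum ran otherwise. It was highest in wild-type replicate 3 (694 CPM) and mutant replicate 2 (1357 CPM), and mutant replicate 3 was the lowest of its group (825 CPM). The part of these markers in the SAUR values was not tested.

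**Figure D4:**
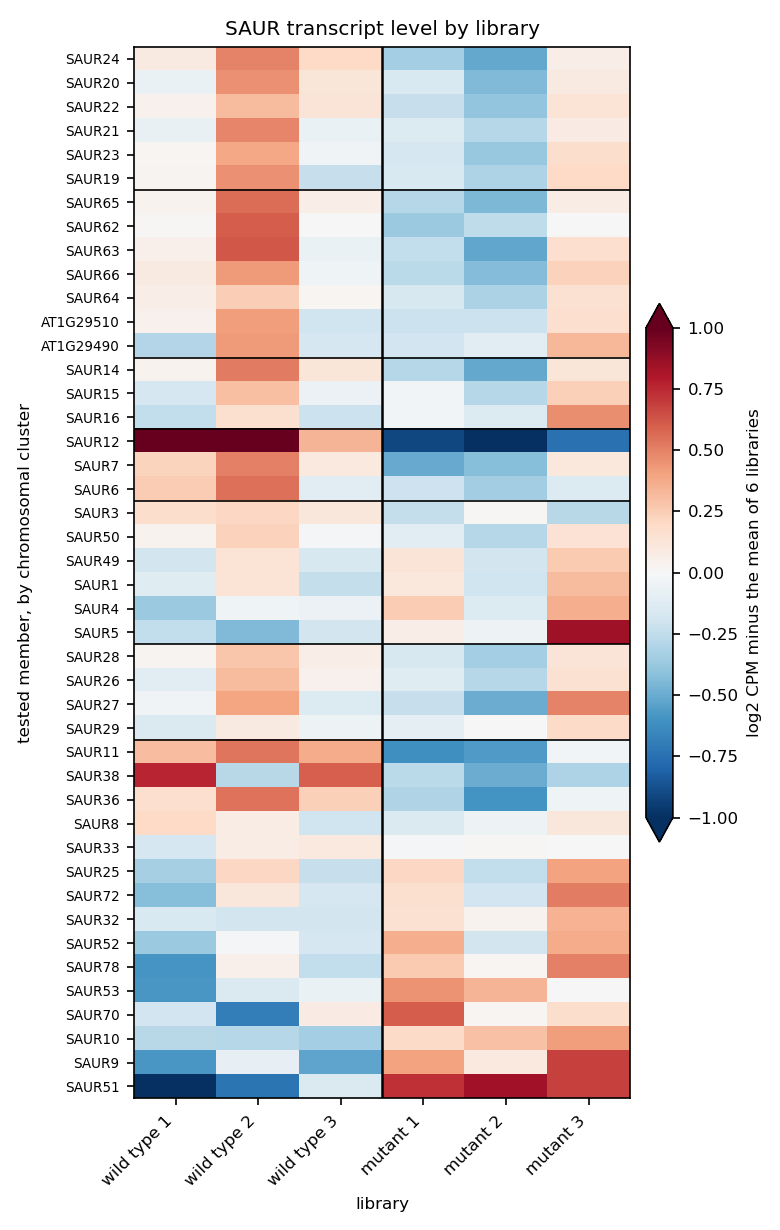
Level of the 44 tested members (rows, grouped by tandem array) in the 6 libraries (columns), as log2 CPM minus the mean of the 6; red is above and blue below that mean, with colours saturating at 1. The columns of wild-type replicate 2 and mutant replicate 3 are red in most rows and that of mutant replicate 2 is blue, while SAUR12 and SAUR51 separate by genotype.

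SAUR transcripts are short, with a median exonic length of 836 bases among the tested members (473 to 1690) against 1758 for all tested genes, and the libraries differed in how counts varied with length. With offsets that remove each library's trend with length, 19 of 44 members were lower (43.2%, against 9.87% of all genes) and 3 were higher (SAUR51, SAUR9 and SAUR10, against 10.2% of all genes). The median log2 fold change of the members became -0.36, while that of all genes was -0.01. Under these offsets 5 of 6 loci of SAUR19 to SAUR24 were lower (SAUR19 was not, at -0.40 and edgeR adjusted p 0.0897), as were 4 of 7 tested loci of SAUR61 to SAUR68. The number lower then depended on single libraries: it was 4 without mutant replicate 1, 9 without wild-type replicate 1, 11 without wild-type replicate 2 or mutant replicate 2, 19 without wild-type replicate 3 and 20 without mutant replicate 3. Calls over all genes also became fewer in some of these fits: 3.72% of genes were lower without mutant replicate 1 (8.89% of members), 4.79% without wild-type replicate 1 (20%), 11% and 9.0% without replicate 2 of the wild type and the mutant (24.4% each), 5.56% without wild-type replicate 3 (43.2%) and 7.23% without mutant replicate 3 (45.5%). The trend with length differed on average between the genotypes, so the offsets shift their comparison. SAUR33 (482 bases) went from -0.01 to -0.21 on the log2 scale and HA2 (3698 bases) from 0.19 to 0.42. Whether the trend is technical or belongs to the mutant was not tested. SAUR12, SAUR11, SAUR36, SAUR24 and SAUR6 were lower both with and without the offsets.

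Lists of genes around the SAUR proteins in the growth pathway held few genes past the threshold, to be read against 11.3% of all genes lower and 12.1% higher. Of the proton pump genes, the targets that SAUR proteins keep active, 3 of 10 tested fell and 0 rose (median log2 fold change -0.27), while the summed level of the list was 2465, 2422 and 2170 CPM in the wild type and 2500, 2475 and 2302 CPM in the mutant. The most abundant pumps did not pass the threshold: HA1 had a log2 fold change of -0.10 (865 ± 107 and 806 ± 84.2 CPM) and HA2 one of 0.19 (1250 ± 131 and 1424 ± 41.6 CPM; SD, n = 3 each). HA8 stood at 19.6, 14.6 and 20 CPM in the wild type and 8.77, 10.2 and 8.91 CPM in the mutant (-0.96, SE 0.14, edgeR adjusted p 0.0022), without overlap. HA5 fell by 0.54 on the log2 scale (adjusted p 0.0057) and HA11 by 0.36 (adjusted p 0.0337, lost with length offsets, at -0.16 and adjusted p 0.265). Of the 9 PP2C.D phosphatase genes, whose products SAUR proteins inhibit, AT5G06750 rose (0.56, SE 0.11, edgeR adjusted p 0.00806) and AT5G66080 fell (-0.29, adjusted p 0.0374), a call that it lost without any 1 of the 6 libraries. The median of the list was 0.02.

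Among 11 upstream factors (ARF6, ARF7, ARF8, ARF19, BZR1, BES1 and 5 PIFs) 1 rose and 1 fell, with a median of -0.28. PIF3 rose from 60.1, 56.9 and 59.8 CPM to 82.9, 98.4 and 74.7 CPM (log2 fold change 0.53, SE 0.11, edgeR adjusted p 0.0087), and PIF4, a known activator of SAUR genes in warm-grown hypocotyls, fell from 41.3 ± 9.12 to 24.9 ± 3.73 CPM (-0.73, SE 0.16, edgeR adjusted p 0.0121). Those of the other early auxin genes that passed the threshold all fell, while over all tested genes 11.3% fell and 12.1% rose. Of the Aux/IAA repressor genes 1 of 26 tested fell, IAA14 (-0.44, SE 0.09, edgeR adjusted p 0.00833), 0 rose and the median was 0.04. Of the auxin-conjugating GH3 genes 3 of 6 tested fell and 0 rose (median -0.31): WES1 by 0.84, GH3.1 by 0.76 and DFL1 by 0.39 on the log2 scale, at adjusted p 0.00105, 0.0096 and 0.0206. DFL1 lost its call with length offsets (edgeR adjusted p 0.066), with the replicate number as a block, and without wild-type replicate 1 or mutant replicate 1. GH3.1 and IAA14 also lost theirs without mutant replicate 1. IAA14 lost it with the block as well, and GH3.1 with length offsets and the block. WES1 kept its call under all 17 alternatives.

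SAUR genes outside the 50 served as a comparison of the same family. Of 29 such loci 19 were tested, 6 rose (SAUR17, SAUR34, SAUR76, SAUR41, SAUR35 and SAUR55), 0 fell (12.1% of all genes rose and 11.3% fell) and the median log2 fold change was 0.20. The number that rose was 6 with length offsets and 3 without wild-type replicate 3, mutant replicate 1 or mutant replicate 3. With the replicate number as a block SAUR41, SAUR35 and SAUR76 lost their calls. With length offsets and the block SAUR41, SAUR35, SAUR76 and SAUR55 lost theirs. All 6 but SAUR55 were at low levels. SAUR17 (AT4G09530), a dark-expressed gene known to keep the apical hook closed, had 18, 32 and 18 counts in the wild type and 116, 140 and 66 in the mutant. It rose with no overlap and kept its call under all 17 alternatives (2.31, SE 0.36, edgeR adjusted p 0.00277). SAUR34 (AT4G22620) rose by 1.76 (SE 0.30, edgeR adjusted p 0.00443) and SAUR76 (AT5G20820) by 1.6 (SE 0.43, edgeR adjusted p 0.0263, lost without any 1 of 4 libraries). The difference between these loci and the 50 was not tested.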

How the data were processed

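Polyadenylated RNA of 3 wild-type and 3 mutant dark-grown seedling samples was sequenced from strand-specific libraries, per the labels' protocols. The tools STAR 2.7.10b, featureCounts from Subread 2.0.3 and DESeq2 1.38 and the build TAIR10 are named in the submitters' processing notes. The strand and read-pair settings are not given in the sources used here. For every library the authors deposited counts per gene as whole numbers, not normalized or pooled. The authors also deposited a comparison with a mean normalized count (a signal over all libraries), a log2 fold change (mutant over wild type) with its standard error, and p-values, per the file headers.

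Counts were tested with edgeR 4.0.16 in R 4.3.3 (filterByExpr with the group, TMM factors, glmQLFit, glmQLFTest, no covariate, Benjamini-Hochberg adjustment at 0.05 over 20791 genes). CPM values use TMM-scaled library sizes, and SE is the size of the log2 fold change over the square root of F, which is approximate. Members, gene lists and tests were chosen with earlier results of these data known. Named are members past the threshold, the 5 highest per kilobase, the 5 with the largest change, the arrays of SAUR19 to SAUR24 and SAUR61 to SAUR68, members with a stated role, and up to 3 genes per list.

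Symbols, lengths and sequences came from RefSeq TAIR10.1, whose nuclear chromosomes were taken as those of TAIR10. Lengths were found for 20693 tested genes. Copies were searched with blastn 2.17.0 (at least 100 bases at 95% identity). The 17 alternatives changed the scaling (upper-quartile or RLE), the tool (DESeq2 1.42.0), the filter (none, or 10 counts or more in each sample), or the model (the replicate number as a block), left out single libraries, halved the counts, summed the copies, or added length offsets, alone, with GC content or with the block. The offsets came from a 4-degree spline of log2 CPM on length in each library, using genes whose mean log2 CPM was above 1. Length offsets without each library were added after seeing the data. Among counts of 1 to 20, 74.8% were even, so precision may be lower than the totals of 40876788 to 44982000 imply. The test was checked on simulated data.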

Additional observations from a re-analysis of the deposited data

How the results depend on the processing

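The number of members lower in the mutant, 5, was 3 with upper-quartile factors, 2 with the replicate block, 19 with length offsets and 19 with length and GC offsets, and with 1 library left out it was between 1 (mutant replicate 1 absent) and 9 (mutant replicate 3 absent). With length offsets and a library left out it ran from 4 to 20. The number higher, 4, ran from 2 (without wild-type replicate 1 or mutant replicate 1) to 6 when a library was left out, was 1 with length offsets and the block, and ran from 1 to 3 with length offsets and a library left out. Over all genes the share lower also moved, from 11.3% to 3.54% without mutant replicate 1, 7.16% without mutant replicate 3 and 4.42% with the block, and the share higher from 12.1% to 5.06%, 8.85% and 5.64%. The cause was not tested.

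Same-numbered libraries did not deviate together (correlations of deviations 0.05, -0.28 and -0.17, and 0.31 between wild-type replicate 2 and mutant replicate 3). With 3 libraries per group, these values cannot settle whether the replicate number pairs the samples. With the block 2 members were lower and 3 higher, and with length offsets and the block 7 and 1.

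Of the 44 tested members 10 turned direction in at least 1 of the 17 alternatives, none of them past the threshold. AT1G29490 (0.01) had -0.00 with DESeq2, -0.20 with length offsets, -0.21 with length and GC offsets, -0.19 with length offsets and the block, and -0.13, -0.08 and -0.17 without wild-type replicates 1 and 3 and mutant replicate 3. Over the fits without 1 library its range was -0.17 to 0.27, that of AT1G29510 was -0.32 to 0.00 and that of SAUR19 was -0.34 to 0.03 (highest without wild-type replicate 2). SAUR15 had 0.11 without wild-type replicate 2 and 0.07 without mutant replicate 2. SAUR1, SAUR8, SAUR27, SAUR29, SAUR33 and SAUR49 turned as well. Of the log2 fold changes of the 27 members taken by the naming rule under the alternatives, 356 kept direction and side of the threshold, 30 lost the threshold, 32 gained it and 11 turned. SAUR12 and SAUR51 kept their calls under all 17. The numbers of list genes called stayed within 1.5 times in 72 cases and moved further in 30. Low counts limit the precision of SAUR12, SAUR51, SAUR38 and SAUR70.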

Other observations

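Even counts were not spread equally over the members. Of the 24 values of SAUR26 to SAUR29 in the 6 libraries 24 were even, of the 36 values of SAUR19 to SAUR24 23 were (63.9%), and over all tested members 212 of 264 were (80.3%).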
